A study of Mus musculus with 8 samples.

Results

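Trophectoderm genes were followed in the nuclear RNA of mouse embryonic stem cells with a knockout of Mettl14 or Mettl3. The set holds 10 genes chosen by name: the transcription factor genes Cdx2, Eomes, Elf5, Gata2, Gata3, Tfap2a, Tfap2c and Hand1, and the keratin genes Krt8 and Krt18. All 10 are among the 54446 genes counted in each library, and 9 of them, all but Elf5, had enough reads to be among the 21782 genes tested. The cells are of the C57BL/6 strain and were grown in serum with LIF and inhibitors of GSK3 and MEK, a medium that holds embryonic stem cells undifferentiated. The nuclear fraction was isolated, ribosomal RNA was depleted, and the remaining RNA was sequenced with a strand-keeping total RNA kit.

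Each line gave a control and a cKO group (Mettl14 control and Mettl14 cKO, and the like pair for Mettl3), 4 groups of 2 libraries, where cKO is the knockout (CKO in the sample titles) of the gene named and each control belongs to the line of that gene. The sources used here do not state the deleted exons, the time after deletion, the origin of the lines or whether a line is a single clone. METTL3 carries the catalytic site, and METTL14 pairs with it, in the enzyme that writes N6-methyladenosine on RNA, and the design asks how nuclear RNA changes when either is lost.

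The trophectoderm is the outer epithelium of the blastocyst and the source of the placenta. Hippo signalling is low in outer cells, so that YAP and TEAD4 switch on Cdx2 and, beside it, Gata3, and CDX2 and the pluripotency factor OCT4 (gene Pou5f1) repress each other. EOMES and ELF5 keep trophoblast stem cells dividing, TFAP2C, TFAP2A and GATA2 act with them, HAND1 drives giant cells, and KRT8 and KRT18 pair into the first intermediate filaments of the embryo. Embryonic stem cells keep most of these genes low, with DNA methylation at Elf5 and Polycomb at many of the others. Several members also work elsewhere: Eomes in the primitive streak, Tfap2a in surface ectoderm and neural crest, and Krt8 and Krt18 in simple epithelia generally.

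Total counts ran from 17235889 to 20086128 per library. The labels do not say whether the 2 libraries of a group stem from different cultures; their spread, on which all p-values rest, may be technical. In its own knockout Mettl14 was at 51.2% of control and Mettl3 at 51.9%. These values do not show a complete loss of either RNA, and the source of the remaining RNA was not tested. Mettl14 stood at 28.4 ± 2.38 CPM (counts relative to library size; SD, n = 2) in Mettl3 control, close to the 29.0 ± 1.72 of Mettl14 cKO. All 8 embryonic stem cell markers were counted in every library. Their summed level was 2298 to 2314 CPM in Mettl14 control, 1678 to 1685 in Mettl14 cKO, 820.0 to 825 in Mettl3 control and 757 to 762 in Mettl3 cKO. The 12 fibroblast markers summed to 701 to 707 CPM in Mettl14 control, 1345 in both Mettl14 cKO libraries, 5540 to 5720 in Mettl3 control and 6542 to 6625 in Mettl3 cKO, and none but Lum, in 1 Mettl14 control library, was at 0.

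Promoter sequence is shown for 2 pairs of members: Krt8 and Krt18, which both rose in Mettl14 cKO, and Cdx2 and Eomes, which differed between the control lines in opposite directions. The windows are the 250 bases before the gene start in RefSeq (build GRCm38.p6), given 5′ to 3′ on the gene's strand, with motif matches in capitals. Krt8 and Krt18 are shown only up to the start of an annotated exon, whereas the last 21 bases of Cdx2, which hold its second match, are annotated as exon.
Krt8: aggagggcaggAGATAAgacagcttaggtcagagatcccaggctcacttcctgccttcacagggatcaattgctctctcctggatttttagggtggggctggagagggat
Krt18: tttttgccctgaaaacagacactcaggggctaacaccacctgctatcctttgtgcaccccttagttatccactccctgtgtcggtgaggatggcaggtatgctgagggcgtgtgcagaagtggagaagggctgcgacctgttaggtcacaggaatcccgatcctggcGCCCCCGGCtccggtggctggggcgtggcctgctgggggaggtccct
Cdx2: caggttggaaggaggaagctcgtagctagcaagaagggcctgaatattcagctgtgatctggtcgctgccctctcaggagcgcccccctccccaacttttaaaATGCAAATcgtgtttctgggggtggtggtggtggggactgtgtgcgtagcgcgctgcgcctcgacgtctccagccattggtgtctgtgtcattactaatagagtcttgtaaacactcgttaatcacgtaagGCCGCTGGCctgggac
Eomes: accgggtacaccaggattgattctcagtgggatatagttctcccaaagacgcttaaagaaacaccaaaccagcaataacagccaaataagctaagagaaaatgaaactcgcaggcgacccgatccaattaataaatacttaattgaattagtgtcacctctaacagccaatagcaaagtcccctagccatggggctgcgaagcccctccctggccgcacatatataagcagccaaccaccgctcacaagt

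These stretches lie at chr15:102004483-102004592 on the minus strand (Krt8), chr15:102027966-102028179 on the plus strand (Krt18), chr5:147307250-147307499 on the minus strand (Cdx2) and chr9:118477939-118478188 on the plus strand (Eomes). Windows were found for 8 of the 10 members, 11 windows in all; Tfap2c and Hand1 had none. Motifs were searched on both strands, and no matches overlapped. The octamer ATGCAAAT, the element that OCT4 binds, was in 1 of the 11 windows, that of Cdx2, and in 1.6% of 32851 promoter windows of the same length. The TFAP2 palindrome GCCNNNGGC was in 4 of the 11, those of Cdx2, Krt18, Gata3 and the second of Gata2, against 13.7% of all windows. CATTCC, which TEAD factors bind, was in 2, the first of Elf5 and the second of Gata2, against 12.6%, and the GATA motif AGATAA in 1, that of Krt8, against 9.99%. The TFAP2 matches of Cdx2, Gata3 and Gata2 and the TEAD matches of Elf5 and Gata2 lie in annotated exons; the TFAP2 match of Krt18, the GATA match of Krt8 and the octamer of Cdx2 do not. The AP-1 motif TGANTCA (6.75% of all windows) and the exact TATA motif TATAAA (12.4%) were in 0 of the 11. Other forms of the TATA motif were not searched, and the Eomes stretch holds the near match tatataag.

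The members were far from equally abundant. Per length, as RPKM (CPM divided by the kilobases of exon), Krt8 stood at 78.2 ± 1.50 in Mettl14 control and Krt18 at 44.9 ± 2.23 (SD, n = 2). Below them came Eomes at 5.23, Tfap2c at 3.64, Gata3 at 2.66, Gata2 at 2.03, Tfap2a at 1.63, Cdx2 at 0.685, Hand1 at 0.476 and Elf5 at 0.0216 RPKM. In this order the libraries of Cdx2 and Hand1 overlapped and those of the other neighbours did not. In Mettl14 cKO, Gata2 moved above Tfap2c and Gata3, and Tfap2a fell below Cdx2, with no overlap between neighbours. In Mettl3 control, Gata3 led the factors at 3.30 RPKM, ahead of Tfap2c (2.60) and Eomes (2.13), and Cdx2 (1.50) overlapped Tfap2a (1.36). In Mettl3 cKO, Gata3 again led the factors, at 4.33 RPKM, ahead of Eomes (2.79); Gata2 overlapped Tfap2c there and Cdx2 overlapped Tfap2a. The 2 keratins together made up 74.6 to 76.9% of the members' summed CPM in the libraries of both controls and of Mettl3 cKO, and 85.9 and 86.1% in those of Mettl14 cKO.

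**Figure D1:**
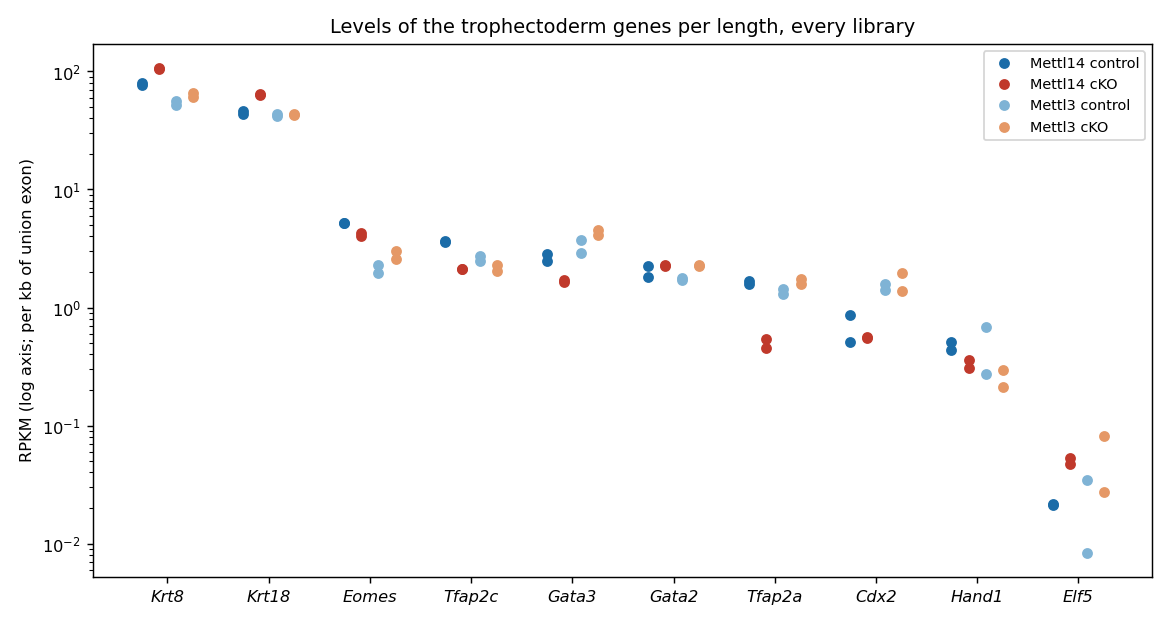
Levels of the 10 genes per length in every library, as RPKM on a log axis, ordered by their mean in Mettl14 control; each point is 1 library and each colour 1 group. The keratins lie far above Cdx2, and Elf5 lies lowest in each group, its means between 0.0214 and 0.0543 RPKM.

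In Mettl14 cKO the 2 keratin genes rose, and Tfap2a, Tfap2c, Gata3 and Eomes fell. Tfap2a showed the largest change, to 30.5% of its control level. Thus 2 of 9 tested members rose and 4 fell, while 40.4% of all tested genes were called in this comparison, 18.0% higher and 22.4% lower. Cdx2, Gata2 and Hand1 were not called. The members' median log2 fold change was -0.34, against 0.03 over all tested genes. Calls here and below rest on a Benjamini-Hochberg adjusted p under 0.05 from edgeR's quasi-likelihood test. The counts of 2 and 4 were the same under all 14 alternative settings.

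Tfap2a encodes an AP-2 transcription factor (ENSMUSG00000021359, chromosome 13, 40715302 to 40738376, minus strand, mm10). It had 7.74 and 8.22 CPM in the Mettl14 control libraries and 2.23 and 2.63 in Mettl14 cKO, from 121 and 131 counts and 40 and 51 counts. Both cKO libraries lay well below both controls, and the groups did not overlap. The log2 fall was by 1.71 ± 0.19 (SE, n = 2 against 2; adjusted p = 1.64e-14 in edgeR's test). Over all alternatives its log2 fold change lay between -1.85 and -1.59. The antisense genes Gm26688, Gm47067 and Gm47061 overlap it and had at most 16, 5 and 17 counts in a library, and the sources used here do not state whether counting used the strand.

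Its paralog Tfap2c, which encodes AP-2 gamma, a factor of the trophectoderm and of primordial germ cells (ENSMUSG00000028640, chromosome 2, 172549593 to 172558622, plus strand), had 13.6 and 13.2 CPM in Mettl14 control, against 7.76 and 7.80 in Mettl14 cKO. The cKO libraries were close to each other and below both controls. It fell by 0.78 ± 0.13 on the log2 scale, to 58.0% of control (SE, edgeR's test, adjusted p = 9.06e-08).

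Gata3, a zinc finger factor that acts in parallel to CDX2 (ENSMUSG00000015619, chromosome 2, 9857078 to 9890034, minus strand), had 11.4 and 9.79 CPM in Mettl14 control, against 6.86 and 6.56 in Mettl14 cKO. The groups did not overlap, although the control libraries differed by more than the cKO libraries. It fell by 0.66 ± 0.14 on the log2 scale (SE; adjusted p = 2.44e-05 in edgeR's test). Its relative Gata2 (ENSMUSG00000015053, chromosome 6, 88193891 to 88207032, plus strand) had 9.86 and 12.1 CPM in Mettl14 control, against 12.4 and 12.0 in Mettl14 cKO. These groups overlapped, and the log2 fold change was 0.16, with a 95% interval of -0.09 to 0.40 (edgeR's test, adjusted p = 0.333).

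Eomes, a T-box factor of the trophoblast and the primitive streak (ENSMUSG00000032446, chromosome 9, 118478212 to 118486132, plus strand), had 21.8 and 21.7 CPM in Mettl14 control, against 17.7 and 16.7 in Mettl14 cKO. Both cKO libraries were below both controls. It fell by 0.34 ± 0.10 on the log2 scale (SE; adjusted p = 0.00296 in edgeR's test), the smallest of the 4 falls.

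Cdx2, the homeobox gene that defines the lineage (ENSMUSG00000029646, chromosome 5, 147300805 to 147307270, minus strand), had 18 and 31 counts in control and 23 and 24 in cKO, or 1.15 and 1.95 CPM and 1.28 and 1.24 CPM. The cKO libraries lay between the 2 controls. The estimate, on the log2 scale, was -0.30, with a 95% interval of -0.95 to 0.36 (edgeR's test, adjusted p = 0.513), so changes within that interval are not excluded. Without Mettl14 control replicate 2, the library with 31 counts, the estimate was 0.13, and without replicate 1 of that group it was -0.64.

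Hand1 (ENSMUSG00000037335, chromosome 11, 57828705 to 57832818, minus strand) had 16 and 14 counts in control and 11 and 14 in cKO of the Mettl14 line. In CPM the groups did not overlap, and the log2 fold change was -0.50, with a 95% interval of -1.45 to 0.45 (edgeR's test, adjusted p = 0.44). The median over tested genes of like abundance, the second eighth from the bottom, was 0.30 in this comparison.

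Elf5, an ETS factor gene (ENSMUSG00000027186, chromosome 2, 103411688 to 103450989, plus strand), was nearly silent. There were 2 and 2 counts in Mettl14 control, 5 and 6 in its cKO, 1 and 4 in Mettl3 control and 9 and 3 in Mettl3 cKO. Summed over a group these were 4 (95% exact Poisson interval 1.09 to 10.2, counting error only), 11 (5.49 to 19.7), 5 (1.62 to 11.7) and 12 (6.20 to 20.96). The intervals of control and cKO overlapped in both lines, which does not show equal levels, and the gene was not tested. Per length the Mettl14 groups did not overlap, at 0.0214 to 0.0218 RPKM in control and 0.0475 to 0.0527 in cKO. Across the least abundant eighth of tested genes, the median change in Mettl14 cKO was 0.63 on the log2 scale. Whether Elf5 rose beyond that shift was not tested. The Mettl3 groups overlapped.

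The keratins went the other way. Krt8, a type II keratin gene (ENSMUSG00000049382, chromosome 15, 101996698 to 102004482, minus strand), had 155 and 151 CPM in Mettl14 control, against 209 and 205 in Mettl14 cKO. It rose by 0.43 ± 0.04 on the log2 scale, to 135% of control (SE, edgeR's test, adjusted p = 4.73e-21). Krt18, its type I partner and chromosomal neighbour (ENSMUSG00000023043, chromosome 15, 102028180 to 102032027, plus strand), had 66.8 and 62.3 CPM in Mettl14 control, against 90.7 and 92.7 in Mettl14 cKO. It rose by 0.51 ± 0.05, to 142% of control (SE, edgeR's test, adjusted p = 3.36e-17). In both genes the cKO libraries lay above both controls, and the ratio of Krt8 to Krt18 per length was 1.70 and 1.78 in the controls and 1.69 and 1.62 in cKO. Reads of Krt8 can be shared with its pseudogene Krt8-ps, which had 4 to 14 counts per library.

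Krt8 and Krt18 belong to many epithelia, and markers of other cells moved in the same libraries. Of the 12 fibroblast markers, 11 were tested, and 10 rose in Mettl14 cKO. For comparison, 18.0% of all tested genes were called higher there and 22.4% lower. The 8 markers of surface ectoderm and keratinocytes summed to 38.1 and 42.9 CPM in Mettl14 control, against 75.2 and 71.6 in Mettl14 cKO, where 2 of 6 tested rose, with Krt5 and Krt15 at 0 in both controls, and Krt5 at 1 and 3 counts and Krt15 at 9 and 9 in cKO. The 12 primitive endoderm markers summed to 968 and 977 CPM in control and 1596 and 1574 in cKO, with Amn at 0 in both controls, and 4 of 11 tested rose. Those of mesoderm and primitive streak summed to at most 7.94 CPM in this line, and 0 of 6 tested were called by edgeR's test (1 at an unadjusted p under 0.05, 0 by DESeq2). Those of neural crest and neural cells summed to 95.5 and 96.9 CPM in control and 87.1 and 89.3 in cKO, where 1 of 6 tested rose and 3 fell. The part of these cells in the members' changes was not tested. In RNA of mixed cells, fewer cells of a type and less RNA per cell cannot be told apart. Tested genes with few counts shifted upward in Mettl14 cKO, with a log2 median of 0.63 in the lowest eighth by abundance. Whether Krt5, Krt15 and Amn, at 0 in both controls, rose beyond that shift was not tested.

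**Figure D2:**
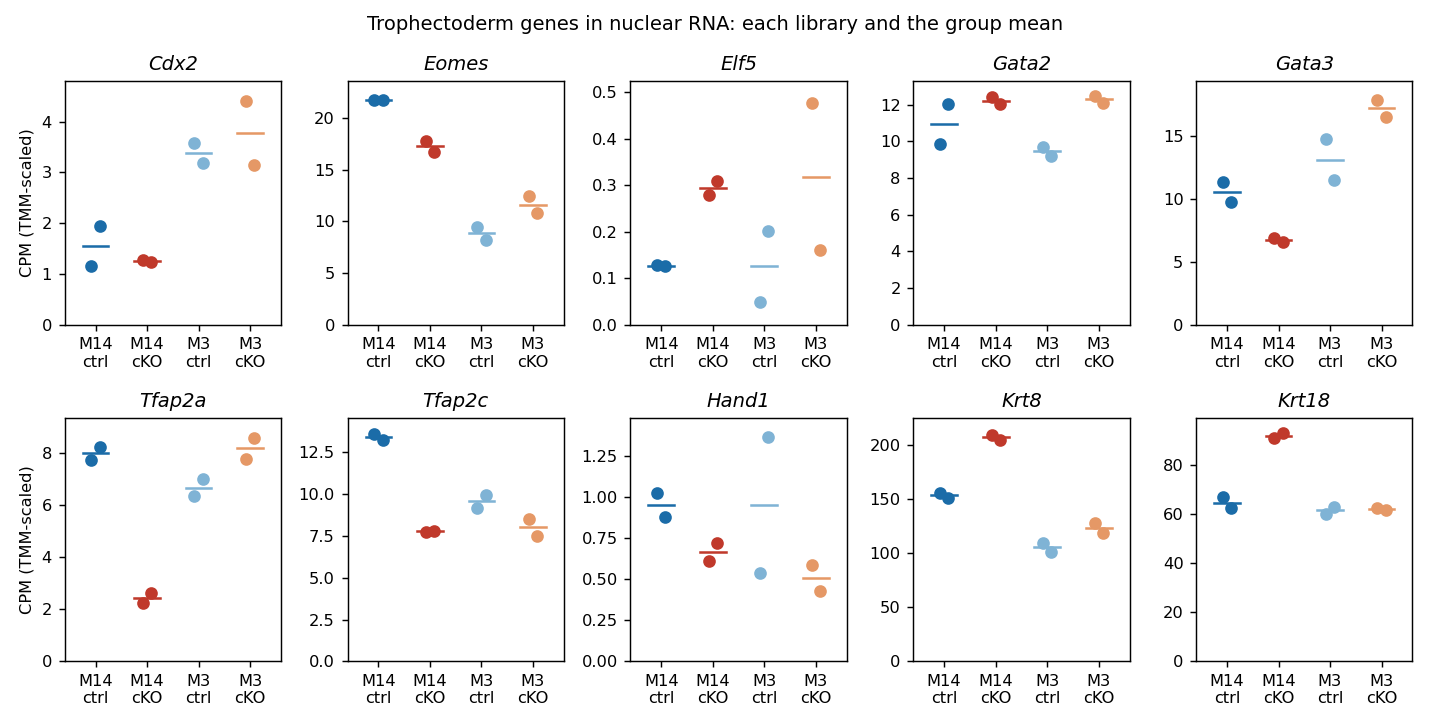
CPM of each of the 10 genes in all 8 libraries, 1 panel per gene with its own axis from 0; points are libraries, lines are group means, and M14 and M3 stand for the Mettl14 and the Mettl3 line. Tfap2a and Gata3 are lowest in Mettl14 cKO, where Krt8 and Krt18 are highest, while Cdx2 differs mainly between the lines.

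Genes around this network in Mettl14 cKO were followed in 4 further lists. As above, 18.0% of all tested genes were called higher and 22.4% lower in this comparison. Of 18 upstream regulators, which include the Hippo pathway, 4 rose and 9 fell, with a median log2 fold change of -0.08. Klf5, a Krüppel-like factor of the inner cell mass and trophectoderm, fell by 1.02 ± 0.04, and Yap1, the Hippo effector, by 0.68 ± 0.05. Tead4, named after its value was seen, encodes the DNA-binding partner of YAP and fell by 0.38 ± 0.08 (adjusted p = 5.64e-05). Amot, an angiomotin gene that restrains YAP, rose by 0.95 ± 0.06, and Notch1 by 0.55 ± 0.05 (SE, edgeR's test; adjusted p of Klf5, Yap1, Amot and Notch1 1.73e-48, 4.28e-27, 1.67e-31 and 1.25e-20).

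Of 22 genes of trophoblast differentiation and placenta, 14 were tested, and 0 rose and 1 fell by edgeR's test (0 and 2 at an unadjusted p under 0.05, 0 and 1 in DESeq2; median 0.01, or -0.02 with RLE scaling). The 1 was Tfpi, a coagulation inhibitor gene, which fell by 0.30 ± 0.05 (adjusted p = 4.11e-08). Zfp382 (-0.25, adjusted p = 0.09), Dlx3 (-0.68, adjusted p = 0.264) and Plac1 (0.67, adjusted p = 0.266) were next by p and were not called. The placental hormone genes Prl3d1, Prl3b1 and Prl2c2 and the spongiotrophoblast gene Tpbpa had at most 8 counts in any of the 8 libraries, and Synb had 0 in all of them.

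Of 22 genes of the epithelial wall of the blastocyst, 9 rose and 3 fell, with a median of 0.10. Aqp3, a water and glycerol channel gene, rose from 66.0 ± 1.30 to 132.9 ± 0.574 CPM (SD, n = 2), or by 1.01 ± 0.05 on the log2 scale, and Cldn4, a tight junction gene, by 0.75 ± 0.04. Ezr, which links actin to the apical membrane, fell by 0.60 ± 0.04 (SE, edgeR's test; adjusted p 3.86e-42, 2.86e-39 and 1.34e-31 in the order Aqp3, Cldn4 and Ezr). Krt19, a further simple-epithelium keratin gene named after its value was seen, had 70 and 75 counts in control and 179 and 199 in cKO and rose by 1.14 ± 0.15 (adjusted p = 1.54e-10). Cdh1, the junction gene of E-cadherin, is named for its p in Mettl3 cKO and fell in Mettl14 cKO. Over all alternatives its log2 fold change here lay between -0.36 and -0.28.

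Of 22 factors listed as holding trophectoderm genes silent in embryonic stem cells, 0 rose and 18 fell by edgeR's test (median -0.41). The numbers were the same at an unadjusted p under 0.05 and in DESeq2. Over all tested genes 18.0% were called higher and 22.4% lower. Pou5f1, Sox2, Nanog and Esrrb of this list are also among the embryonic stem cell markers, whose summed level fell in Mettl14 cKO. Pou5f1 fell from 559 ± 16.1 to 240.4 ± 1.17 CPM (SD, n = 2), that is by 1.22 ± 0.03 on the log2 scale. Sox2, its partner, fell by 1.95 ± 0.06, the demethylase gene Kdm1a by 0.97 ± 0.04 and the Polycomb methyltransferase gene Ezh2 by 0.97 ± 0.04 (SE, edgeR's test; adjusted p 1.64e-73, 7.28e-59, 1.43e-53 and 5.32e-49). Of the 7 trophectoderm factor genes tested, none was called higher in Mettl14 cKO by edgeR's test or under the alternatives run. With 18.0% of all tested genes called higher, few such calls are expected among 7 genes, and Cdx2 and Hand1 had few counts. Whether the fall of the silencing factors bears on the members was not tested.

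In Mettl3 cKO, Krt8, Gata3, Eomes and Gata2 rose, and 0 of 9 tested members fell by edgeR's test (also 0 at an unadjusted p under 0.05 and in DESeq2), while 20.9% of all tested genes were called, 15.1% higher and 5.78% lower. The split of calls depended on the scaling: with upper-quartile scaling, which shifted the median of all tested genes from 0.03 to -0.09, 1293 genes were called higher and 2771 lower in place of 3292 and 1260. Under that scaling 1 member, Krt8, was called higher and 1, Tfap2c, lower. The members' median log2 fold change was 0.22, and 0.11 with upper-quartile scaling. Cell type markers moved in this line too. In the main fit 5 of 11 tested fibroblast markers rose and 2 fell, and of 8 embryonic stem cell markers 1 rose and 4 fell. Their part in the members' changes was not tested, and in mixed cells a change in cell numbers and in RNA per cell cannot be told apart.

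Krt8 had 109 and 101 CPM in Mettl3 control and 128 and 118 in Mettl3 cKO, with no overlap. It rose by 0.22 ± 0.04 on the log2 scale (SE; adjusted p = 2.26e-06 in edgeR's test; range over all alternatives 1.62e-14 to 0.0335). Krt18 had 59.9 and 62.9 CPM in control and 62.4 and 61.5 in cKO, which overlapped. Its log2 fold change was 0.01, with a 95% interval of -0.09 to 0.11 (adjusted p = 0.892). The ratio of Krt8 to Krt18 per length was 1.34 and 1.18 in control and 1.50 and 1.41 in cKO.

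Gata3 had 14.8 and 11.5 CPM in Mettl3 control and 17.9 and 16.5 in Mettl3 cKO and rose by 0.39 ± 0.11 (SE, edgeR's test, adjusted p = 0.00408). The call was lost without Mettl3 control replicate 2 (log2 fold change 0.25, adjusted p = 0.158), with upper-quartile scaling (adjusted p = 0.0603) and in DESeq2 (adjusted p = 0.105; range over all alternatives 4.09e-05 to 0.158). Eomes had 9.49 and 8.20 CPM in control and 12.4 and 10.8 in cKO and rose by 0.39 ± 0.12 (adjusted p = 0.00911). Its call was lost without Mettl3 control replicate 2 (adjusted p = 0.099), without Mettl3 cKO replicate 1 (0.119), with upper-quartile scaling (0.0884) and in DESeq2 (0.0806; range over all alternatives 0.000365 to 0.119). Gata2 had 9.69 and 9.21 CPM in control and 12.5 and 12.1 in cKO and rose by 0.38 ± 0.12 (adjusted p = 0.0133), a call lost with upper-quartile scaling (adjusted p = 0.111) and in DESeq2 (0.119; range over all alternatives 0.00056 to 0.119).

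Tfap2a had 6.34 and 6.98 CPM in Mettl3 control and 7.76 and 8.58 in Mettl3 cKO. The groups did not overlap, but the log2 fold change of 0.29 was not called (95% interval -0.0005 to 0.59, edgeR's test, adjusted p = 0.159). Tfap2c had 9.15 and 9.97 CPM in control and 8.50 and 7.52 in cKO, with a log2 fold change of -0.25 (adjusted p = 0.168). Cdx2 had 73 and 63 counts in control and 83 and 59 in cKO, which overlapped, with a log2 fold change of 0.16 and a 95% interval of -0.29 to 0.60 (adjusted p = 0.69). Hand1 had 11 and 27 counts in control and 11 and 8 in cKO, with a log2 fold change of -0.90 (adjusted p = 0.192), and without Mettl3 control replicate 1 it was called lower (-1.39, adjusted p = 0.0469; range over all alternatives 0.0469 to 0.965). Without Mettl3 control replicate 2, the library with 27 counts, the value was -0.06 (adjusted p = 0.965), and without Mettl3 cKO replicate 2 it was -0.65. Genes of its abundance had a median of -0.27 here.

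Among the wider lists in Mettl3 cKO, 11 of 18 upstream regulators rose and 0 fell by edgeR's test (12 and 0 at an unadjusted p under 0.05, 8 and 0 in DESeq2), and with upper-quartile scaling 5 rose and 3 fell. Notch1 rose by 0.40 ± 0.04, Wwtr1, which encodes the YAP relative TAZ, by 0.28 ± 0.05, Amot by 0.24 ± 0.04 and Yap1 by 0.23 ± 0.05 (SE, edgeR's test; adjusted p 3.58e-16, 5.3e-06, 5.57e-07 and 2.74e-05). The call of Yap1 was lost with upper-quartile scaling (adjusted p = 0.06). Over all tested genes 15.1% were called higher and 5.78% lower in Mettl3 cKO. Of the 14 tested trophoblast and placental genes 2 rose and 1 fell. Peg10, an imprinted retrotransposon-derived gene needed for the placenta, rose from 590.0 ± 3.02 to 790.2 ± 11.1 CPM (SD, n = 2). Ascl2, a trophoblast basic helix-loop-helix factor gene, had 53 and 46 counts in control and 81 and 78 in cKO and rose by 0.78 ± 0.22 (adjusted p = 0.00456). Tfpi fell by 0.15 ± 0.05 (adjusted p = 0.0148), a call lost when any 1 library was left out, without the low-count filter and in DESeq2.

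Of the 22 epithelial wall genes 10 rose and 1 fell in Mettl3 cKO, with a median of 0.10 that became -0.01 with upper-quartile scaling, where 5 rose and 4 fell. Cdh1, the gene of E-cadherin, rose by 0.33 ± 0.03, Aqp3 by 0.35 ± 0.06 and Cldn4 by 0.28 ± 0.03, and Ezr fell by 0.40 ± 0.04 (SE, edgeR's test; adjusted p 2.61e-23, 9.98e-07, 7.88e-12 and 2.17e-18). Of the 22 silencing factors 6 rose and 7 fell (3 and 9 with upper-quartile scaling, median 0.02 and -0.09). Pou5f1 rose by 0.39 ± 0.04, whereas Nanog fell by 0.36 ± 0.04, Parp1 by 0.29 ± 0.03 and Dnmt1 by 0.22 ± 0.03 (SE, edgeR's test; adjusted p 2.46e-15, 1.49e-12, 7.94e-16 and 1.63e-11).

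**Figure D3:**
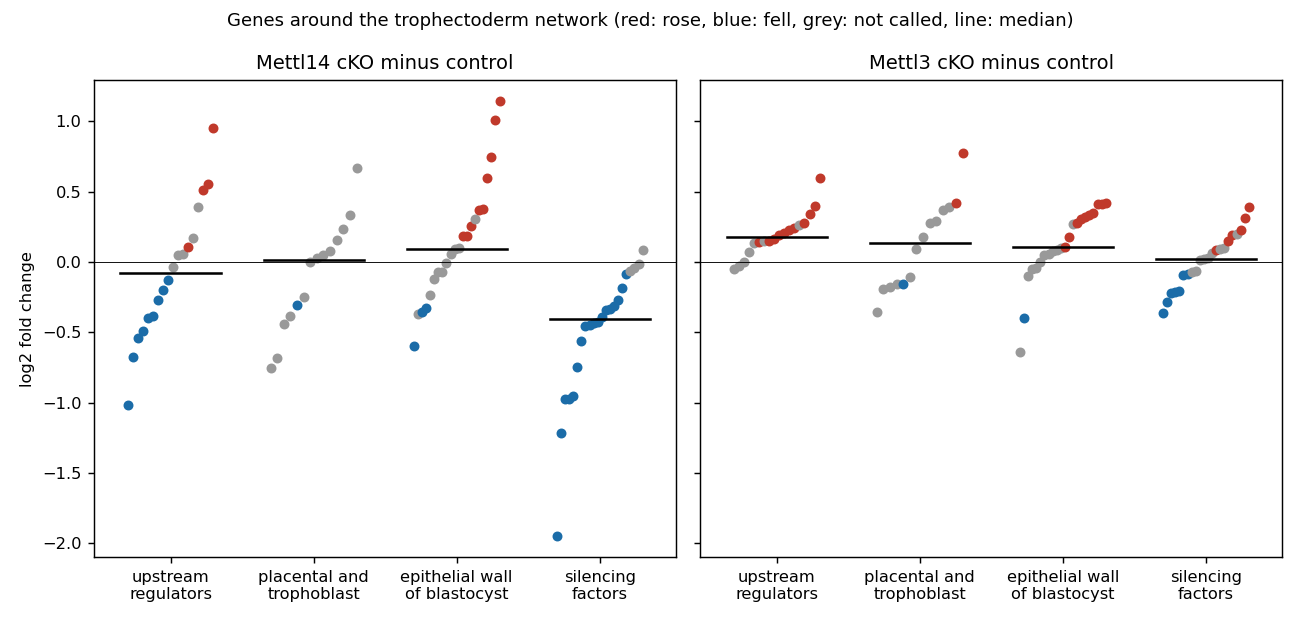
Log2 fold changes of the tested genes of the 4 further lists in Mettl14 cKO (left) and Mettl3 cKO (right); each point is 1 gene, red rose, blue fell, grey was not called, and the black line is the list's median. In Mettl14 cKO the silencing factors lie mostly below 0 (median -0.41), while the epithelial wall genes spread to both sides (9 rose and 3 fell).

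The changes of 6 members differed between the knockouts by the test of the difference, 2 with a higher and 4 with a lower value in the Mettl14 line, while 33.2% of all tested genes were called, 12.7% higher and 20.5% lower. Each knockout was compared with the control of its own line, so the gene lost and the line cannot be told apart in this difference. The Mettl14 change minus the Mettl3 change was -2.00 ± 0.24 on the log2 scale for Tfap2a (SE, edgeR's test, adjusted p = 2.12e-12). It was -1.05 ± 0.17 for Gata3 (adjusted p = 2.14e-07) and -0.73 ± 0.15 for Eomes (adjusted p = 4.2e-05). For these 3 genes the fitted change was negative in the Mettl14 line and positive in the Mettl3 line, though that of Tfap2a was not called in the latter. For Krt18 the difference was 0.49 ± 0.07 (adjusted p = 2.26e-09).

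For Tfap2c and Krt8 the difference depended on the setting. That of Tfap2c was -0.53 ± 0.18 (SE, edgeR's test, adjusted p = 0.0178; range over all alternatives 0.00481 to 0.112), and its call was lost without replicate 1 of either Mettl3 group (0.0508 for control and 0.0788 for cKO), with upper-quartile scaling and in DESeq2. That of Krt8 was 0.21 ± 0.05 (adjusted p = 0.000976; range 7.31e-09 to 0.278), and its call was lost without Mettl3 control replicate 1 (0.0887), without Mettl3 cKO replicate 2 (0.127) and without the low-count filter. Cdx2 (-0.45, 95% interval -1.25 to 0.34), Gata2 (-0.22, -0.56 to 0.115) and Hand1 (0.40, -0.96 to 1.76) were not called, which does not show that the knockouts act alike on them. With 1 library left out, the value of Cdx2 ran from -0.82 (without Mettl14 control replicate 1) to -0.06 (without Mettl14 control replicate 2), and that of Gata2 from -0.40 to -0.11 on leaving out the same libraries. That of Hand1 ran from -0.43 (without Mettl3 control replicate 2) to 0.90 (without Mettl3 control replicate 1). Upper-quartile scaling moved the median of all genes in this comparison from 0.02 to 0.17 and turned the split of calls from 2777 higher and 4461 lower to 4287 and 2788.

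**Figure D4:**
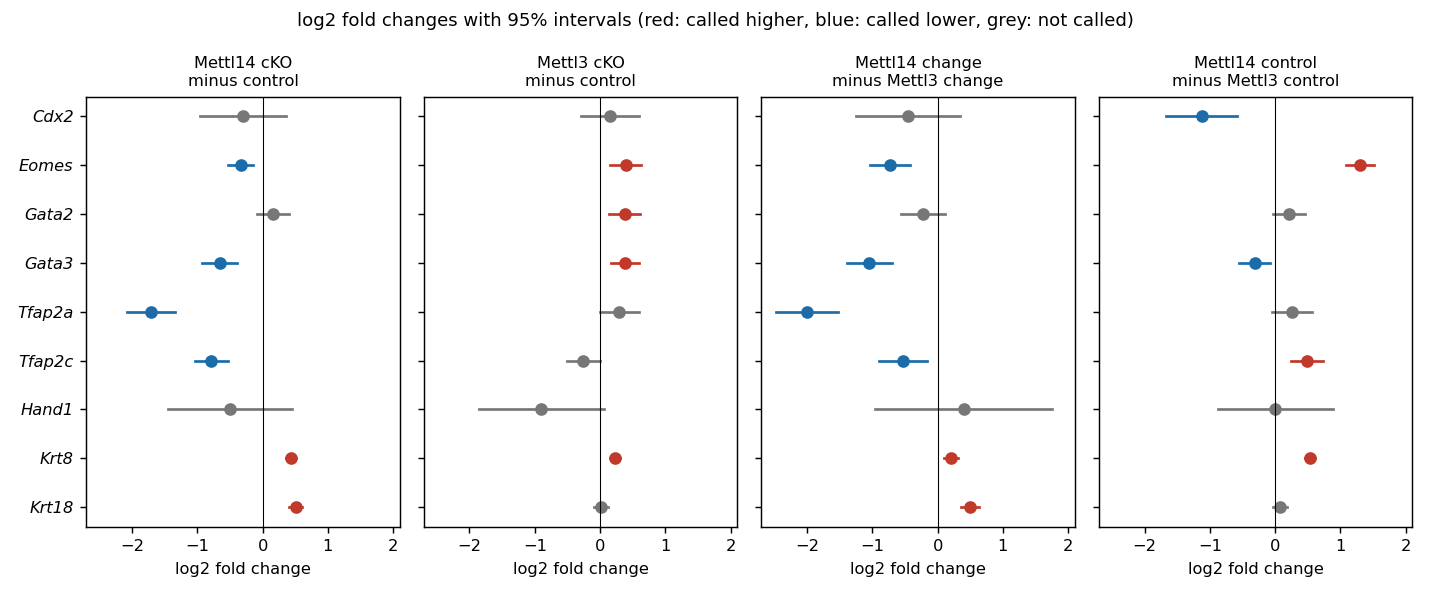
Log2 fold changes of the 9 tested members in the 4 comparisons; dots are edgeR's estimates, lines are 95% intervals, red was called higher, blue lower and grey not called. The interval of Tfap2a in Mettl14 cKO runs from -2.08 to -1.34, and the widest intervals are those of Cdx2 and Hand1, the tested members with the fewest counts.

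The control lines themselves differed in 5 of 9 tested members, 3 higher and 2 lower in Mettl14 control than in Mettl3 control, where 67.8% of all tested genes were called, 33.6% higher and 34.1% lower. Eomes was 1.30 ± 0.11 higher on the log2 scale in Mettl14 control (SE, edgeR's test, adjusted p = 7.79e-22), at 21.7 against 8.85 CPM. Cdx2 was lower: it had 1.15 and 1.95 CPM in Mettl14 control and 3.59 and 3.19 in Mettl3 control, 45.7% of the latter (log2 difference -1.12 ± 0.27, adjusted p = 0.000169; range over all alternatives 8.01e-06 to 0.0431), with no overlap. Leaving out Mettl14 control replicate 1 gave -0.74 (adjusted p = 0.0431), and leaving out its replicate 2 gave -1.50. Genes of its abundance, the fourth eighth, had a median of -0.15 in this comparison. Krt8 was 0.54 ± 0.04 higher in Mettl14 control (SE, edgeR's test, adjusted p = 3.29e-26) and Tfap2c 0.49 ± 0.12 higher (adjusted p = 0.000287). The value of Krt8 was near the median of 0.52 over tested genes of like abundance, the top eighth.

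Gata3 was lower in Mettl14 control (-0.31 ± 0.12, SE, edgeR's test, adjusted p = 0.0171; range over all alternatives 5.88e-05 to 0.604). This call was lost without Mettl14 control replicate 2 (0.358), without Mettl14 cKO replicate 2 (0.0502), without Mettl3 control replicate 1 (0.604), without the low-count filter and in DESeq2. Krt18 (0.07), Gata2 (0.21), Tfap2a (0.26) and Hand1 (0.002) were not called. Krt18 passed the threshold as higher when replicate 2 of Mettl14 control (0.17) or of Mettl3 control (0.14), or any 1 of the 4 cKO libraries (0.12 to 0.13), was left out, and without the low-count filter (0.21). Gata2 passed it without Mettl14 control replicate 1 (0.41) and without the low-count filter (0.35), as did Tfap2a without the filter (0.40). Upper-quartile scaling moved the median of all genes here from -0.09 to -0.31 and the split of calls from 7329 higher and 7430 lower to 5642 and 9450; under it Krt18 was called lower (-0.15, adjusted p = 0.00994), while Eomes, Krt8 and Tfap2c stayed higher. Beside these differences, Pou5f1 had 559 CPM in Mettl14 control and 79.7 in Mettl3 control, and fibroblast markers stood at the sums given above. Of the silencing factors, 19 of 22 were higher and 1 lower in Mettl14 control, against 33.6% and 34.1% of all tested genes.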

How the data were processed

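Each library has a deposited table of raw read counts by gene. HTSeq, HISAT2 2.1.0, Trimmomatic 0.38, CASAVA and the mm10 build are named in the submitters' processing notes; the sources used here do not state the annotation release, the strand setting or the treatment of multiply mapped reads. Gene IDs were matched without version to GENCODE M21 (54409 of 54446). edgeR 4.0.16 in R 4.3.3 was run on all 8 libraries in 1 fit of 4 group means (4 residual degrees of freedom): filterByExpr at a minimum count of 10, TMM scaling, robust glmQLFit and glmQLFTest, adjusted over 21782 genes. SEs are the log2 fold change over the root of the test's F. The test also borrows variance across genes (median prior degrees of freedom 127), so SEs, intervals and p-values rest mostly on that shared variance. RPKM uses the union of a gene's exons. Alternatives were RLE and upper-quartile scaling, no filter, DESeq2 1.42.0, a fit of only the groups compared, a replicate block and leaving out each library. Libraries of a group differed by more than sampling noise (chi-square over its degrees of freedom 1.42 to 2.05) and were kept. The test was checked on simulated data with a fixed dispersion shared by all genes. Recovery and error were scored only for abundant genes, so the check says little about members with few counts. Members, lists and tests were chosen with earlier results of these data known. By rule the members, and of each further list the up to 4 tested genes with the smallest p in each knockout, are named; 1 gene that this rule names is not reported here. Promoter windows are from RefSeq tables.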

Additional observations from a re-analysis of the deposited data

Results flagged for a closer look

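The changes of the following genes differed between the knockouts by edgeR's test of the difference (Benjamini-Hochberg adjusted p under 0.05, n = 2 in each of 4 groups). Each value is the Mettl14 change minus the Mettl3 change on the log2 scale. In such a value the gene lost and the line cannot be told apart. Among the trophectoderm genes those that differed were Tfap2a (-2.00), Gata3 (-1.05), Eomes (-0.73), Tfap2c (-0.53), Krt18 (0.49) and Krt8 (0.21). Among upstream regulators they were Klf5 (-0.99), Yap1 (-0.91), Tead4 (-0.52), Wwtr1 (-0.23), Amot (0.71) and Notch1 (0.15). In the placental list Zfp382 (-0.53) and Peg10 (-0.42) differed. Among epithelial wall genes the values were -0.66 for Cdh1, -0.20 for Ezr, 0.47 for Cldn4, 0.66 for Aqp3 and 0.72 for Krt19. Among silencing factors they were -1.97 for Sox2, -1.61 for Pou5f1, -1.04 for Kdm1a, -0.99 for Ezh2, 0.13 for Dnmt1 and 0.10 for Parp1. Several of these calls were lost under alternatives: that of Parp1 in 11 of 13 (adjusted p up to 1), Notch1 in 10 of 13 (up to 0.792), Dnmt1 in 6 of 13 (up to 0.869), Tfap2c in 4 of 13 (up to 0.112), Zfp382 in 4 of 13 (up to 0.188), Krt8 in 3 of 13 (up to 0.278), Wwtr1 in 3 of 13 (up to 0.49) and Ezr in 1 of 13 (0.599 with upper-quartile scaling). Those of Parp1 were lost with RLE scaling, without the low-count filter, in DESeq2 and on leaving out any 1 library. Those of Notch1 were lost in the same 3 settings and on leaving out any 1 library except Mettl3 control replicate 1.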

How the results depend on the processing

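For the 9 tested members, 445 of 491 recomputed values kept their direction and their side of the threshold; 12 more changed sign without being called in either setting, 12 gained a call, 21 lost one and 1 called value had the opposite sign. The sign changes without a call were those of Cdx2 in Mettl14 cKO (0.13) and Mettl3 cKO (-0.07) and of the Hand1 difference (-0.43), each with 1 library left out, of Krt18 in Mettl3 cKO (-0.10 to -0.005), of Gata2 between controls with upper-quartile scaling (-0.0048), and of Hand1 between controls (-0.49 to -0.02). In Mettl14 cKO the members called were 2 higher and 4 lower in every alternative run. In Mettl3 cKO the 4 members called higher became 1 with upper-quartile scaling and 1 in DESeq2, and 2 to 4 with 1 library left out; the 0 called lower became 1 with upper-quartile scaling and 0 to 1 with 1 library left out. For the difference the 2 called higher became 1 without the low-count filter and 1 to 2 with 1 library left out. For the controls the 3 higher became 6 and the 2 lower 1 without the filter, the lower became 1 in DESeq2, and 1 to 2 with 1 library left out. The fits with 1 library left out or no filter also tested more genes. DESeq2 called 2166 genes in place of 4552 in Mettl3 cKO and 4714 in place of 7238 for the difference. Values called in either setting that reversed with upper-quartile scaling were, for the controls, Krt18 (-0.15), Ezr (-0.10) and Cdh1 (-0.014); without the filter the difference of Parp1 was -0.0076. The cause of these changes was not tested. With the replicate block 8835, 4620, 7275 and 14754 genes were called (Mettl14 cKO, Mettl3 cKO, difference, controls), against 8801, 4552, 7238 and 14759, and no member count changed. The labels do not state whether same-numbered libraries are paired. Their deviations correlated at -0.006 to 0.028 across genes, so no large shared effect was seen, which does not exclude a pairing. Depth limits Cdx2, Hand1 and Elf5, with at most 83, 27 and 9 counts in a library.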
